A study of Homo sapiens with 16 samples.

Results

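The 9 cytokine receptor genes described here are CSF3R, CSF2RB, IL6R, IL6ST, EPOR, IL18R1, IL18RAP, IL1R1 and IL7R, out of 43836 genes in the counts table. They were chosen by symbol, with earlier results of these data known, and matched to the Ensembl identifiers of the table through GENCODE release 44. All 9 were found and followed through all 8 conditions of the series. The series measured RNA of KG-1, an established human acute myeloid leukemia (AML) line of CD34-bearing myeloblast-like cells, in 16 libraries, 2 per condition. The question behind it was how the transcription factor FOXM1 and the kinase AKT act on each other and on drug response.

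Control cells carried a lentivirus with a non-targeting shRNA (pLKO.1-puro), and FOXM1-KD cells carried a lentivirus with an shRNA against FOXM1. Both lines were selected with puromycin, so each genotype is 1 selected cell population and a difference between the lines cannot be told apart from an effect of the knockdown. Control cells received DMSO (0.3%), the FOXM1 inhibitor STL427944 (50 μM), the BCL-2 inhibitor venetoclax (100 nM), cytarabine (AraC, 0.75 μM) or the allosteric AKT inhibitor MK-2206 (30 μM). FOXM1-KD cells received DMSO, venetoclax or AraC at the same doses. Treatment lasted 48 h except for MK-2206, which was given for 24 h, so drug and duration cannot be told apart in that comparison. The study's methods call the 2 libraries of a condition biological replicates, and the labels do not say how they were raised, so if they shared a culture p-values measure only technical spread.

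Cytokine receptors of class I have no kinase of their own: the bound cytokine brings receptor chains together, JAK kinases attached to the chains phosphorylate them, and STAT factors are activated. CSF3R (granulocyte colony-stimulating factor), EPOR (erythropoietin) and CSF2RB, the beta chain shared by the GM-CSF, IL-3 and IL-5 receptors, carry growth signals in myeloid and erythroid cells, IL6R and the shared chain IL6ST (gp130) carry IL-6 signals, and IL7R serves lymphoid cells. IL1R1, IL18R1 and the IL-18 co-receptor IL18RAP belong to the IL-1 receptor family, which signals through MYD88 and NF-κB instead.

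FOXM1 itself had 2554 and 2515 counts in the control DMSO libraries and 923 and 1551 in the FOXM1-KD DMSO libraries. Under AraC it had 3497 and 3284 counts in control cells against 2057 and 2161 in FOXM1-KD cells, and under venetoclax 1883 and 2599 against 740 and 955. Totals ran from 7351755 to 21362546 counts per library, and the 2 MK-2206 libraries were the shallowest at 7351755 and 10330720. The mitochondrial share of counts was 6.68% and 18.4% in those libraries and at most 3.05% in the others. The labelled cell type was checked with its defining marker: CD34 had 12483 to 28951 counts in the control libraries without MK-2206, 7 and 18 counts after MK-2206, and 0 to 4 counts in all 6 FOXM1-KD libraries. The libraries labelled FOXM1-KD and MK-2206 thus lacked the marker of the line almost completely, and the part of this in the results below was not tested.

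In control cells, the library labelled STL427944 replicate 2 and that labelled venetoclax replicate 1 stood apart from their own groups. Only 1.19% of 12583 genes were 2-fold or more apart between these libraries, whereas 12.9% were between the STL427944 replicates and 13.6% between the venetoclax replicates. The remaining STL427944 and venetoclax libraries were 0.652% apart from each other. They lay close to control DMSO replicates 1 and 2, at 0.215% and 0.747% for STL427944 replicate 1 and 0.731% and 0.238% for venetoclax replicate 2. The DMSO replicates were 0.469% apart. STL427944 replicate 2 was 10.2% and 10.3% apart from the DMSO libraries, and venetoclax replicate 1 was 6.06% and 7.49% apart from them. Each library was kept under its label, and whether labels were exchanged between these groups was not tested. If they were, the values of both groups would mean something else, which touches every comparison with control cells under venetoclax or STL427944.

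Levels are CPM, counts scaled to a common library size by TMM over the 16 libraries. Levels of different genes are compared only as CPM per kilobase of exon. Counts, where given, are not scaled for depth, and the MK-2206 libraries were the shallowest. A change was called at a 2-fold or larger difference and a Benjamini-Hochberg adjusted p below 0.1 in edgeR's quasi-likelihood test over all genes, and log2 fold changes are given with their standard error (SE). Each comparison was fitted separately on its own few libraries, so adjusted p-values are not to be compared between comparisons.

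IL6R had the highest level per kilobase in control cells with DMSO, 68.1 ± 5.93 CPM per kb (SD, n = 2). IL18RAP followed at 28.0 ± 1.75, CSF2RB at 13.4 ± 0.716, CSF3R at 11.7 ± 0.343 and IL6ST at 4.15 ± 0.0553 CPM per kb, and these levels did not overlap between neighbours. EPOR at 2.11 ± 0.362, IL18R1 at 1.53 ± 0.365 and IL1R1 at 1.18 ± 0.00344 CPM per kb lay within or close to each other's spread, and IL7R had no counts. After MK-2206 the order was different: EPOR led at 15.9 ± 3.40 CPM per kb, above IL6R at 6.51 ± 0.842. In FOXM1-KD cells with DMSO, IL6R at 22.4 ± 10.9 and CSF2RB at 10.7 ± 1.33 CPM per kb were the highest. Their libraries did not overlap, at 14.7 and 30.2 against 9.72 and 11.6 CPM per kb.

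**Figure D1:**
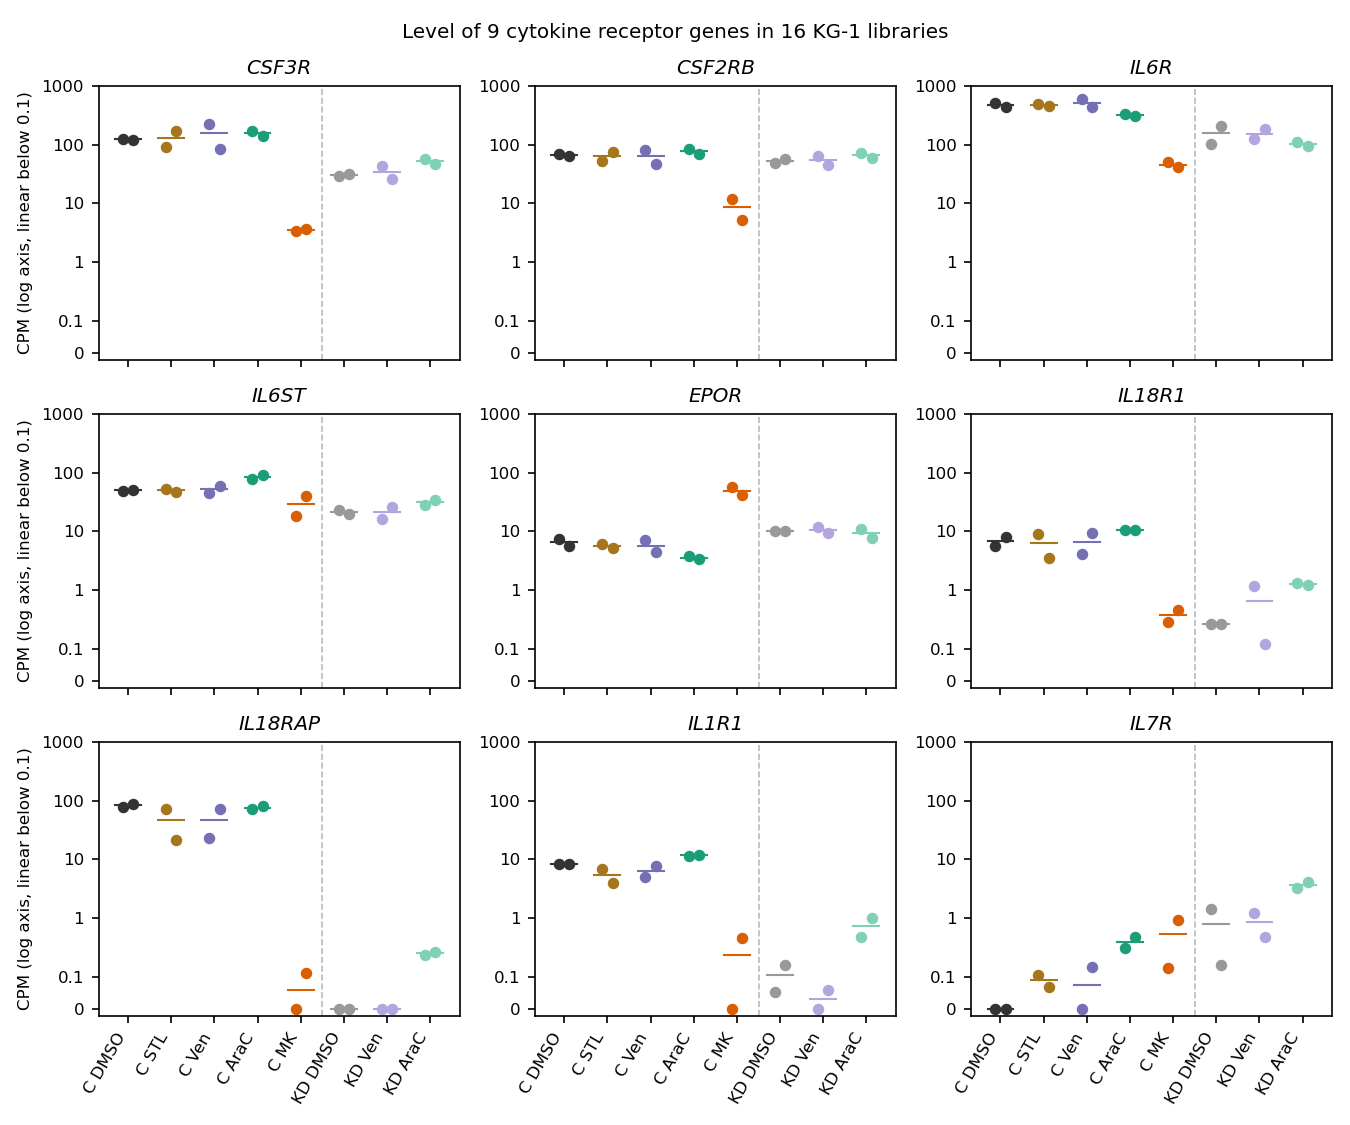
CPM of each receptor gene in the 16 libraries, with 1 point per library and a line at the mean of 2, on a log axis that is linear below 0.1. C is control, KD is FOXM1-KD, STL is STL427944, Ven is venetoclax and MK is MK-2206; the dashed line separates the genotypes. IL18RAP ran from 86.6 CPM with DMSO to 0 in 4 FOXM1-KD libraries, while EPOR was highest after MK-2206 at 41.5 and 56.3 CPM.

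FOXM1-KD cells had lower levels of 6 of the 9 receptor genes than control cells when both received DMSO. CSF3R, IL6R, IL6ST, IL18R1, IL18RAP and IL1R1 were called lower, and none was called higher. Over all protein-coding genes tested, 16.2% were called lower and 13.4% higher. The median log2 fold change of the members was -1.59, also with IL18RAP set at its bound, against -0.01 over the protein-coding genes. Since the members were chosen with earlier results of these data known, setting them against all protein-coding genes, here and below, is a description and no test.

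Under AraC, the same 6 genes were called lower in FOXM1-KD cells, beside 16.3% of protein-coding genes, and EPOR and IL7R were called higher, beside 17.4%. Under venetoclax the 6 genes were again called lower, where 16.2% of protein-coding genes were, and IL7R was called higher, where 14.2% were. Without single libraries the number called under venetoclax was 5 to 7. The median over the members was -1.63 under AraC and -1.73 under venetoclax, against 0.03 and 0.11 over the protein-coding genes. The 3 comparisons use different libraries of both lines, and CSF2RB passed the threshold in none of them.

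MK-2206 left 6 of the 9 genes called lower than with DMSO, namely CSF3R, CSF2RB, IL6R, IL18R1, IL18RAP and IL1R1, and 2 called higher, EPOR and IL7R. In this comparison 24.3% of protein-coding genes were called lower and 30.2% higher. The members' median log2 fold change was -3.32, against 0.43 over protein-coding genes, a median that moved to 0.21 with total counts only and to 0.53 with DESeq2's size factors. The comparison uses the same 2 DMSO libraries as the FOXM1-KD comparison in DMSO, so their results are not independent.

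**Figure D2:**
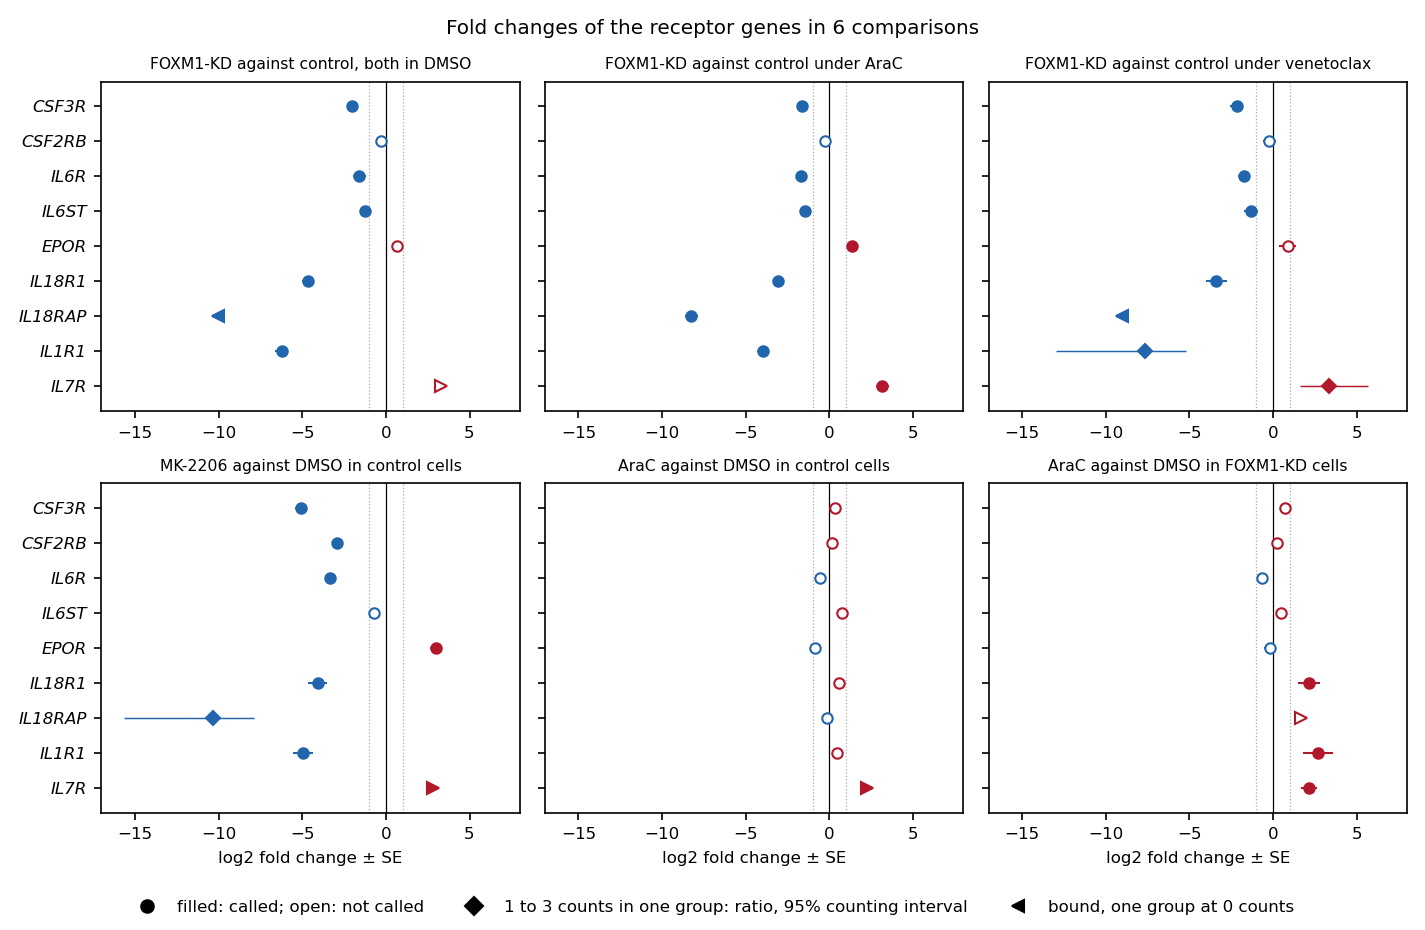
Log2 fold change of each receptor gene in 6 comparisons, with bars for the SE; filled symbols were called and open ones were not, and dotted lines mark a 2-fold change. Triangles are lower bounds where 1 group had no counts, and diamonds are ratios with a 95% counting interval where 1 group had 1 to 3 counts in all. The 6 genes called lower in FOXM1-KD cells lie left of the dotted lines in all 3 upper panels, with CSF3R at -2.02, -1.63 and -2.17.

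CSF3R (chr1:36466043-36483278, minus strand, GRCh38), the receptor for the cytokine that drives granulocyte production, had 126 and 121 CPM in control cells with DMSO. It had 28.8 and 31.6 CPM in FOXM1-KD cells with DMSO and 3.43 and 3.58 CPM after MK-2206, on 24 and 31 counts. Libraries of these 3 conditions did not overlap. The log2 fold change was -2.02 (SE 0.116, adjusted p = 0.00199) in FOXM1-KD cells and -5.06 (SE 0.352, adjusted p = 3.25e-45) after MK-2206. Relative to its SE the change was larger in FOXM1-KD cells, so these adjusted p-values from separate fits do not rank the changes. Under AraC, CSF3R had 173 and 141 CPM in control cells and 57.2 and 47.3 in FOXM1-KD cells, a log2 fold change of -1.63 (SE 0.208). Under venetoclax the FOXM1-KD libraries had 43.5 and 25.9 CPM and the control libraries 228 (replicate 1) and 83.5 (replicate 2), the widest spread of CSF3R within a group. The log2 fold change was -2.17 (SE 0.398, adjusted p = 6.74e-07), and -1.28 without control venetoclax replicate 1. Its ligand CSF3 had at most 8 counts in any library.

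Granulocyte markers moved the other way. The summed level of 7 of them was 13.0 to 13.4 CPM in control DMSO libraries and 5608 to 6176 CPM in FOXM1-KD DMSO libraries, where 5 of the 7 were called higher and CEACAM8 and FCGR3B were at 0. After MK-2206 the sum was 421 to 603 CPM, most of it MPO at 555 and 396 CPM. ELANE, AZU1 and PRTN3 were also above their control DMSO levels, and CEACAM8 and FCGR3B had at most 3 counts. CTSG was lower after MK-2206, at 6.14 and 4.16 CPM against 10.96 and 10.77 CPM in control DMSO libraries. Of 7 monocyte markers, S100A8 was at 0, 4 were called higher in FOXM1-KD cells and ITGAM was called lower, from 110 to 0.897 CPM. Their sum was 111 to 145 CPM in control DMSO libraries and 554 to 1302 CPM, most of it LYZ, in FOXM1-KD DMSO libraries. After MK-2206 the monocyte sum was lower than in control DMSO, at 19.3 to 20.3 CPM. Stem and progenitor markers, 6 genes, summed to 2439 to 2494 CPM in control DMSO, 296.5 to 338.4 CPM in FOXM1-KD DMSO and 84.8 to 111 CPM in MK-2206 libraries. CD34 and HLA-DRA made up most of the control sum, and 4 of the 6 were called lower in FOXM1-KD cells with DMSO, whereas CD33 was called higher, from 38.1 to 92.1 CPM. In bulk RNA, fewer cells of a type and less RNA per cell cannot be told apart, and the part of these markers in the receptor changes was not tested.

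CSF2RB (chr22:36913628-36940439, plus strand) stayed nearest to its control level in FOXM1-KD cells among the members expressed in control cells. It had 69.4 and 64.4 CPM in control cells and 48.5 and 57.9 CPM in FOXM1-KD cells with DMSO, a log2 fold change of -0.32 (SE 0.142, adjusted p = 0.181). Under AraC the lines overlapped, at 83.0 and 69.9 against 72.4 and 59.1 CPM. They overlapped under venetoclax too, at 82.1 and 47.2 against 65.3 and 44.7 CPM (log2 fold change -0.23, from -0.59 to 0.21 without single libraries). After MK-2206 it had 11.9 and 5.20 CPM, a log2 fold change of -2.92 (SE 0.320, adjusted p = 8.87e-19), so that both libraries lay below all others. Without MK-2206 replicate 1 it was -3.64.

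The alpha chains that pair with CSF2RB, CSF2RA and IL3RA, had 0 counts in all 16 libraries. These genes lie in the region shared by X and Y, are listed under both chromosomes in the table, and 37 such genes together held 3 counts on the first and 1 on the second copy, so their 0 is not read as absence of expression. IL5RA, outside that region, had 5 and 2 counts in control DMSO libraries and 24 and 18 after MK-2206, where it was called higher with a log2 fold change of 3.83 (SE 0.704).

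IL6R (chr1:154405193-154469450, plus strand) binds IL-6 and had 505 and 447 CPM in control cells with DMSO. FOXM1-KD cells with DMSO had 103 and 211 CPM, both below the control libraries but far apart from each other. The log2 fold change was -1.59 (SE 0.385, adjusted p = 0.0469), and the call was lost without control DMSO replicate 1 (adjusted p = 0.178) or replicate 2 (adjusted p = 0.149). Without FOXM1-KD DMSO replicate 2 it was -2.21. Under AraC the difference was tighter: control cells had 334 and 308 CPM and FOXM1-KD cells 112 and 94.3 CPM, a log2 fold change of -1.68 (SE 0.189, adjusted p = 8.64e-18). Under venetoclax it was -1.73 (SE 0.361), with 594 and 430 CPM in control and 126 and 182 CPM in FOXM1-KD libraries, and from -2.02 to -1.49 without single libraries. After MK-2206 IL6R had 49.7 and 41.4 CPM, a log2 fold change of -3.32 (SE 0.281, adjusted p = 7.32e-31).

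IL6ST (chr5:55935095-55995022, minus strand) is the signalling chain that IL6R shares with the receptors for LIF, oncostatin M and IL-11. Control DMSO libraries had 49.6 and 50.5 CPM and FOXM1-KD DMSO libraries 23.0 and 19.5 CPM, a log2 fold change of -1.23 (SE 0.132, adjusted p = 0.00625). Under AraC the levels were 76.6 and 92.5 CPM in control and 28.0 and 34.1 CPM in FOXM1-KD cells (log2 fold change -1.49, SE 0.224). Under venetoclax they were 44.9 and 59.3 against 16.1 and 25.9 CPM (log2 fold change -1.31, SE 0.418, adjusted p = 0.0104), a call lost without FOXM1-KD venetoclax replicate 1 (adjusted p = 0.369) or control venetoclax replicate 2 (adjusted p at the threshold). MK-2206 gave 18.1 CPM in replicate 1 and 39.6 CPM in replicate 2. The log2 fold change of -0.71 (SE 0.290) was under 2-fold, and without replicate 2 it was -1.43 and called.

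Ligands of the IL6ST receptors were expressed in some conditions. OSM, oncostatin M, had 915 and 1183 counts in control DMSO libraries and 62 and 120 in FOXM1-KD DMSO libraries, where it was called lower with a log2 fold change of -3.57 (SE 0.374). LIF had 19 and 25 counts in control and none in FOXM1-KD cells with DMSO, and 306 and 461 after MK-2206 (log2 fold change 5.39, SE 0.374). IL11 rose from 1 and 2 counts with DMSO to 968 and 1052 counts after MK-2206. IL6 itself had 0 counts in control DMSO libraries and 10 and 7 after MK-2206.

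EPOR (chr19:11377207-11384342, minus strand), the erythropoietin receptor, was the member that rose most clearly after MK-2206. Its level was 7.29 and 5.71 CPM with DMSO and 56.3 and 41.5 CPM after MK-2206, on 394 and 359 counts in the shallowest libraries. The log2 fold change was 2.97 (SE 0.318, adjusted p = 1.22e-19), and it lay between 2.72 and 3.15 when any single library was left out. FOXM1-KD cells with DMSO had 10.3 and 10.0 CPM, above both control libraries but under 2-fold (log2 fold change 0.65, SE 0.197, adjusted p = 0.0789). Under AraC, EPOR had 3.83 and 3.33 CPM in control cells and 11.1 and 7.63 CPM in FOXM1-KD cells, and was called higher with a log2 fold change of 1.35 (SE 0.271, adjusted p = 3.73e-06). Under venetoclax it had 7.01 and 4.44 CPM in control and 11.6 and 9.20 CPM in FOXM1-KD cells, a difference of 0.86 (SE 0.503, adjusted p = 0.252) that ran from 0.56 to 1.22 without single libraries.

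Markers of erythroid cells stayed near 0 beside these EPOR levels. The sum of 8 of them was 0.110 CPM in each control DMSO library, 1.75 to 2.00 CPM in FOXM1-KD DMSO and 3.58 to 5.00 CPM after MK-2206, and in FOXM1-KD DMSO libraries 6 of the 8, among them HBB and ALAS2, were at 0. KLF1, an erythroid transcription factor of that list, was called higher in both comparisons. It had 1 and 0 counts in control DMSO, 31 and 38 in FOXM1-KD DMSO and 23 and 18 after MK-2206. In CPM it was at 1.64 and 2.00 in FOXM1-KD DMSO and 3.285 and 2.08 after MK-2206. EPO, the ligand, had 1 and 0 counts in control DMSO libraries and 1 and 8 after MK-2206.

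IL1R1, IL18R1 and IL18RAP lie in a stretch on the plus strand of chromosome 2, at chr2:102064544-102179874, chr2:102311529-102398777 and chr2:102418689-102452565, in a row with IL1R2, IL1RL2 and IL1RL1. IL18R1 and IL1RL1 overlap, sharing 95 exon bases or 2.11% of the IL18R1 exons. By the means per kilobase the 3 were the lowest members in FOXM1-KD cells with DMSO and after MK-2206, but in both conditions the IL7R libraries lay on either side of those of IL18R1. Across the 8 condition means of log2(CPM + 1), Pearson's r was 0.980 between IL18R1 and IL18RAP, 0.990 between IL18R1 and IL1R1 and 0.987 between IL18RAP and IL1R1, a description over points that share libraries and scaling.

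Promoter sequences of these 3 genes and of EPOR are shown because the RNA of the 3 was nearly lost in both FOXM1-KD and MK-2206 libraries while that of EPOR rose after MK-2206. They come from RefSeq (GRCh38.p14), run from 250 bases before to 50 after a transcription start, and are written 5′ to 3′ on the gene's strand. Capitals mark matches, on either strand, to 5 motifs. The letters searched for factors of the GATA family were AGATAA. For PU.1, a myeloid transcription factor, they were GAGGAAG. For STAT factors they were TTCNNNGAA, and for C/EBP factors TTNNGCAA. The letters for RUNX factors, which are central to blood formation, were TGTGGT. The windows are IL18RAP chr2:102418371-102418670, IL18R1 chr2:102356033-102356332, IL1R1 chr2:102142056-102142355 (plus strand) and EPOR chr19:11384265-11384564 (minus strand).
IL18RAP: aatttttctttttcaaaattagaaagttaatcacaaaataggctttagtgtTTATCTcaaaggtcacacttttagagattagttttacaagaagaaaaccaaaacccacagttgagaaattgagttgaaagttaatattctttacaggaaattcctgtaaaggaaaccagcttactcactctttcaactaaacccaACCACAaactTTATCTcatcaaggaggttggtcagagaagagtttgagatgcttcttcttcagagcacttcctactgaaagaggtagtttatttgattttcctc
IL18R1: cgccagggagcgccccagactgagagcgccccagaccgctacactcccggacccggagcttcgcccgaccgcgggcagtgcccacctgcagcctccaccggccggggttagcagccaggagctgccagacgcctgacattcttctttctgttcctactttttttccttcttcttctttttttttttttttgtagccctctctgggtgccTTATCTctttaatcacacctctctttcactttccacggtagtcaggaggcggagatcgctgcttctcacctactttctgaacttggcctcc
IL1R1: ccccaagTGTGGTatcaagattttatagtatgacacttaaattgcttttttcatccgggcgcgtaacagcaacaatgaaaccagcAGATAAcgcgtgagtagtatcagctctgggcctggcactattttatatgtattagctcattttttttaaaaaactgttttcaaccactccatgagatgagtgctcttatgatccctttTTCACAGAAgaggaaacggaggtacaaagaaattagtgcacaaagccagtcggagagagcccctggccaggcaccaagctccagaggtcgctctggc
EPOR: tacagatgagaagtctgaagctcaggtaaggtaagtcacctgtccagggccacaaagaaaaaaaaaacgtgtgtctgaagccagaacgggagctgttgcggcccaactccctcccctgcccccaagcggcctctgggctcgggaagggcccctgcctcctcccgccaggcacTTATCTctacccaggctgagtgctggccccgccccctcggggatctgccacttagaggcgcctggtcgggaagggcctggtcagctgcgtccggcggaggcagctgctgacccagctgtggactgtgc

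IL18RAP holds 2 GATA matches, starting 199 and 44 bases before the start, and a RUNX match 54 bases before it. IL18R1 has a GATA match 41 bases before the start, IL1R1 has GATA, STAT and RUNX matches, and EPOR has a GATA match 78 bases before the start. These windows were picked after the matches were seen. Of the other IL1R1 windows 1 held a C/EBP match and 2 held none, the other IL18R1 window held a PU.1 match and no GATA match, and of the other IL18RAP windows 1 overlapped the printed window with the same matches and 1 held none. Among 35116 promoter windows of the same length, 10.3% hold the GATA letters, 13.6% those of PU.1, 7.66% those of STAT, 10.5% those of C/EBP and 13.1% those of RUNX. A match is a description of letters, not of a bound site. RefSeq windows were found for 8 of the 9 genes, CSF2RB being the gene without an entry.

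IL18RAP, the co-receptor that completes the IL-18 receptor, was undetected in 4 of the 6 FOXM1-KD libraries. Control DMSO libraries had 1446 and 1576 counts (79.3 and 86.6 CPM), and all 4 FOXM1-KD libraries with DMSO or venetoclax had 0. Set against a floor of 3 counts over the group, this is at least 1047-fold lower with DMSO (adjusted p = 0.00149) and at least 528.5-fold lower under venetoclax, where the control libraries had 22.8 (replicate 1) and 71.5 CPM (replicate 2). Under venetoclax the bound was 748.3-fold without control replicate 1, 238.9-fold without control replicate 2, and 282.0-fold and 246.5-fold without FOXM1-KD replicates 1 and 2. With DMSO it was 524.1-fold and 522.6-fold without FOXM1-KD replicates 1 and 2. Under AraC, FOXM1-KD libraries had 4 and 5 counts and control libraries 1376 and 1710, a log2 fold change of -8.25 (SE 0.377). After MK-2206 IL18RAP had 0 and 1 counts, a level 1298-fold lower than with DMSO with a 95% counting interval of 232.8 to 51280. Floors and intervals cover counting error only.

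IL18R1, which binds IL-18, started from a lower level. It had 104 and 146 counts (5.70 and 8.02 CPM) in control DMSO libraries and 5 counts in each FOXM1-KD DMSO library, a log2 fold change of -4.65 (SE 0.348, adjusted p = 0.00306). The difference was -3.10 (SE 0.310) under AraC, with 10.3 and 10.6 against 1.30 and 1.21 CPM. Under venetoclax it was -3.40 (SE 0.636), with 4.12 and 9.22 against 1.16 and 0.119 CPM, and -5.73 without FOXM1-KD venetoclax replicate 1, -2.52 without replicate 2 and -2.72 without control venetoclax replicate 2. MK-2206 left 2 and 4 counts (log2 fold change -4.07, SE 0.570, adjusted p = 7.99e-12).

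IL1R1, the signalling receptor for IL-1, had 8.44 and 8.41 CPM in control DMSO libraries, on 154 and 153 counts. FOXM1-KD DMSO libraries had 1 and 3 counts (log2 fold change -6.22, SE 0.399, adjusted p = 0.00237) and MK-2206 libraries 0 and 4 (log2 fold change -4.94, SE 0.597, adjusted p = 1.41e-15). At such counts the size rests on single libraries: it was -7.15 without FOXM1-KD DMSO replicate 2, and -4.12 after MK-2206 without replicate 1, while the other MK-2206 library had none. Under AraC there were 218 and 254 counts in control and 8 and 19 in FOXM1-KD cells, a log2 fold change of -3.99 (SE 0.333), or -4.65 without FOXM1-KD AraC replicate 2. Under venetoclax FOXM1-KD cells had 1 count in all against 78 and 157 in control cells, a level 204.6-fold lower with a counting interval of 36.4 to 8116.

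The neighbours in this stretch were expressed at lower levels. IL1RL1, the IL-33 receptor, had 47 and 60 counts in control DMSO libraries, 0 in both FOXM1-KD DMSO libraries and 0 and 4 after MK-2206, and was called lower in both comparisons. IL1R2, a decoy receptor, and IL1RL2 had at most 4 counts in control DMSO libraries. IL1RAP, the co-receptor of IL1R1 that lies on another chromosome, had 161 and 132 counts in control and 499 and 184 in FOXM1-KD cells with DMSO and did not pass the test there. IL1B, a ligand of IL1R1, fell from 1838 and 2412 counts in control to 14 and 21 in FOXM1-KD cells with DMSO (log2 fold change -6.96, SE 0.286), while IL18, the ligand of IL18R1, had 335 and 340 counts in control against 346 and 130 and did not pass the test (adjusted p = 0.456). The IL-1 antagonist IL1RN was called higher, with 6 and 5 counts against 102 and 160.

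**Figure D3:**
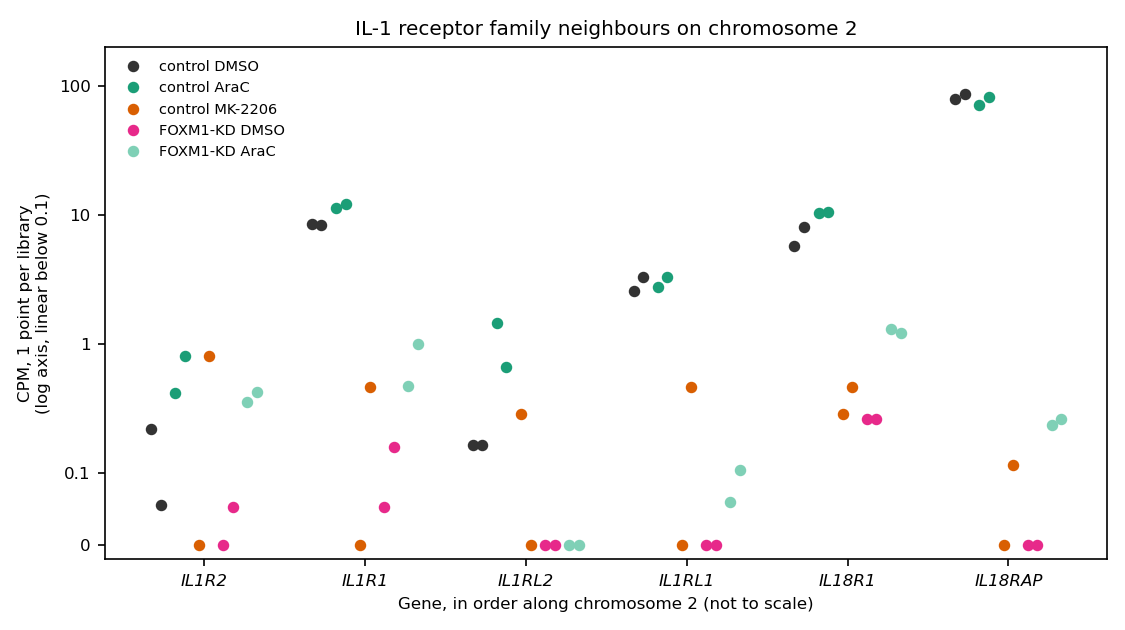
CPM of the 6 IL-1 receptor family genes in their order along chromosome 2, with 1 point per library in 5 conditions, on a log axis that is linear below 0.1. IL1R1, IL18R1 and IL18RAP had at least 5.70 CPM in control cells with DMSO or AraC and at most 0.462 CPM in the MK-2206 and FOXM1-KD DMSO libraries.

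IL7R (chr5:35852695-35879603, plus strand), the IL-7 receptor of lymphoid cells, was the only member with no counts in the control DMSO libraries. FOXM1-KD libraries had 27 and 3 counts with DMSO, 18 and 8 with venetoclax and 55 and 78 with AraC. Control libraries had 6 and 10 counts with AraC, so that IL7R was higher in FOXM1-KD cells under AraC by 3.16 on the log2 scale (SE 0.403, adjusted p = 4.75e-14). With DMSO the difference was at least 9.62-fold but was not called (adjusted p = 0.144). The bound was at least 17.4-fold without FOXM1-KD DMSO replicate 2 and at least 4.81-fold without control DMSO replicate 1. The difference was called with total counts only (adjusted p = 0.0297), with DESeq2 (adjusted p = 0.00815), with all 16 libraries in the fit and without FOXM1-KD DMSO replicate 2 (adjusted p = 0.0750). Under venetoclax control libraries had 0 and 3 counts, and the level in FOXM1-KD cells was 9.95-fold higher with a counting interval of 3.05 to 51.4, and the call was lost without FOXM1-KD replicate 1 (adjusted p = 0.479), without control replicate 1 (adjusted p = 0.132) and with DESeq2 (adjusted p = 0.112).

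After MK-2206 IL7R had 1 and 8 counts, at least 6.99-fold more than with DMSO, and leaving out any of the 4 libraries ended the call (adjusted p from 0.101 to 0.218). The bound was 11.2-fold without MK-2206 replicate 1 and 3.49-fold without control DMSO replicate 1. IL2RG, the common gamma chain that IL7R needs as a partner, went the other way. It had 2853 and 3350 counts (156 and 184 CPM) in control cells with DMSO and 115 and 122 (16.4 and 14.1 CPM) after MK-2206. FOXM1-KD cells with DMSO had 109 and 55 counts (5.765 and 2.90 CPM), a log2 fold change of -5.29 (SE 0.355). Markers of T and NK cells, 6 genes, summed to 41.8 to 48.0 CPM in control DMSO libraries and 6.66 to 7.49 CPM in FOXM1-KD DMSO libraries, where CD3D, CD3E and CD2 were at 0, and 4 B cell markers to 7.51 to 8.24 and 1.32 to 2.59 CPM. Under AraC the T and NK sum was 84.1 to 111.1 CPM in control and 24.7 to 32.4 CPM in FOXM1-KD libraries. The B cell sum was 4.85 to 5.02 CPM in control and 9.37 to 9.91 CPM in FOXM1-KD libraries under AraC. In FOXM1-KD cells AraC raised NKG7, CD79A and PAX5 (log2 fold change 2.55, SE 0.416), and no marker of these lists was called lower.

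AraC changed few of the receptor genes by 2-fold in control cells. IL7R, at 6 and 10 counts against none, was the single gene called, at least 4.81-fold higher, among 6.19% of protein-coding genes called higher and 1.97% called lower. The call was lost without AraC replicate 1 (adjusted p = 0.213) or 2 (adjusted p = 0.274) and was not made by DESeq2, and the bound was 2.40-fold without control DMSO replicate 1. Smaller changes passed the adjusted p but not the fold: IL6ST was higher by 0.74 (SE 0.143, adjusted p = 0.00197), and IL6R and EPOR were lower by -0.59 (SE 0.115, adjusted p = 0.00233) and -0.88 (SE 0.227, adjusted p = 0.0148). Without control DMSO replicate 2, EPOR was at -1.05 and was called. IL18R1 was higher by 0.59 (SE 0.205, adjusted p = 0.0650).

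In FOXM1-KD cells, AraC raised IL18R1, IL1R1 and IL7R, 3 genes, where 11.9% of protein-coding genes were called higher and 2.44% lower. Their median was 0.06, or 0.23 with total counts only. IL18R1 went from 5 and 5 counts to 22 and 23 (log2 fold change 2.14, SE 0.649, adjusted p = 0.0111). IL1R1 went from 1 and 3 counts to 8 and 19 (log2 fold change 2.66, SE 0.886, adjusted p = 0.0249), and IL7R from 27 and 3 to 55 and 78 (log2 fold change 2.14, SE 0.462, adjusted p = 9.36e-05). None of the 3 was called without FOXM1-KD AraC replicate 1 or without replicate 2 (adjusted p from 0.321 to 0.519), and DESeq2 did not call IL18R1 (adjusted p = 0.128) or IL1R1 (adjusted p = 0.194). Without FOXM1-KD DMSO replicate 1, IL7R was at 4.39 and IL1R1 was not called (adjusted p = 0.140), and without replicate 2 they were at 1.29 and 3.59. IL6R was lower by -0.69 (SE 0.264, adjusted p = 0.0677), under 2-fold, and at -1.13 and called without FOXM1-KD DMSO replicate 1. IL18RAP, at 4 and 5 counts against none, was at least 3.16-fold higher and was not called (adjusted p = 0.111). All levels of the IL-1 family members stayed under those of control cells.

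Tested as a difference between the lines, the AraC response of 3 members differed by 2-fold or more, IL18R1 by 1.64, IL18RAP by 5.42 and IL1R1 by 2.30 on the log2 scale, each more positive in FOXM1-KD cells. Of all protein-coding genes, 7.18% were called in this test. The adjusted p was 0.0964 for IL18R1, 0.00704 for IL18RAP and 0.0368 for IL1R1, and IL18RAP rests on 9 counts in FOXM1-KD AraC libraries. Since FOXM1-KD DMSO libraries had none, its fitted difference is no bound and was 1.89 with a prior count of 2. IL18R1 lost the call in all 8 fits that left out 1 library, IL1R1 in 6 of them, and IL18RAP without control AraC replicate 2 (adjusted p = 0.102).

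For venetoclax and STL427944 in control cells, none of the 9 genes was called by edgeR or DESeq2 or had an unadjusted p below 0.05. Each group held 1 library close to DMSO and 1 apart from it. The wide spread within the groups left little power, so the missing calls do not show that these drugs had no effect. Over protein-coding genes the share called was also 0.0 percent for venetoclax, with 122 of 14898 genes at an unadjusted p below 0.05, and 0.0 percent for STL427944, with 174 of 14916 genes. DESeq2 called 0 protein-coding genes for venetoclax and 1 for STL427944. By the log2 ratio to the DMSO mean, the libraries that stood apart were farther from DMSO than their group mates for IL18RAP, IL18R1, IL1R1, CSF3R and IL6R. For CSF2RB and IL6ST the group mates were farther, and for EPOR the groups differed. CSF2RB was at -0.34 in STL427944 replicate 1 and -0.50 in venetoclax replicate 2, against 0.17 and 0.29 in the libraries that stood apart. IL18RAP had 21.6 CPM in STL427944 replicate 2 and 22.8 CPM in venetoclax replicate 1, against 71.3 and 71.5 CPM in their group mates and 79.3 and 86.6 CPM with DMSO.

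Expressed as log2 ratios to the mean of the DMSO libraries, IL18RAP was at -1.94 in STL427944 replicate 2 and -1.86 in venetoclax replicate 1, IL18R1 at -0.96 and -0.74 and IL1R1 at -1.07 and -0.75. CSF3R was above DMSO in these libraries, at 0.48 and 0.89, and below it in STL427944 replicate 1 (-0.46) and venetoclax replicate 2 (-0.56). Without STL427944 replicate 1, IL18RAP and IL1R1 were called lower than DMSO, with IL18RAP at -1.91 (adjusted p = 0.0874), whereas no member was called for venetoclax when any single library was left out.

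**Figure D4:**
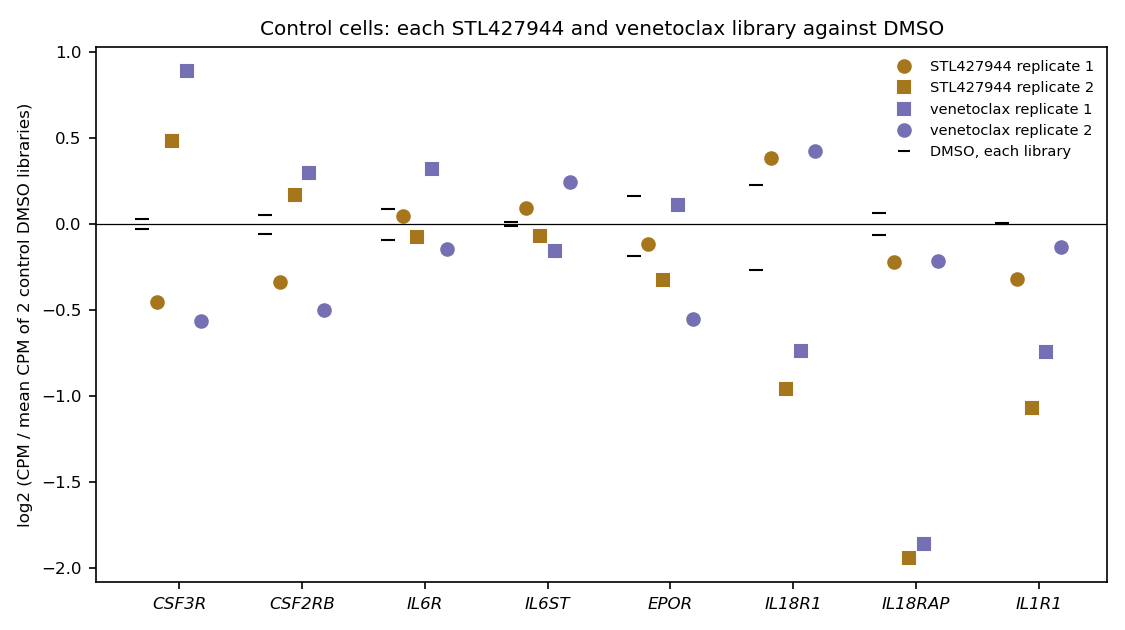
Log2 ratio of the CPM of 8 receptor genes in each STL427944 and venetoclax library of control cells to the mean of the 2 DMSO libraries, whose own values are shown as dashes. Squares are STL427944 replicate 2 and venetoclax replicate 1, which lie near each other at -1.94 and -1.86 for IL18RAP. IL7R is left out because it had no counts with DMSO.

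In FOXM1-KD cells none of the 8 members that could be tested was called for venetoclax by edgeR or DESeq2 or had an unadjusted p below 0.05. Of protein-coding genes 2.84% were called. The venetoclax response did not pass the test of a difference between the lines for any member either, at an unadjusted p below 0.05 or by DESeq2, where 1.1 percent of protein-coding genes were called. In FOXM1-KD cells the SE ran from 0.306 for IL6R to 2.25 for IL1R1, so the missing calls do not show that venetoclax had no effect. The log2 fold changes in FOXM1-KD cells ran from -1.53 for IL1R1, on 1 count against 4, to 1.24 for IL18R1, whose venetoclax libraries had 17 and 2 counts.

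Downstream of the class I receptors, 11 JAK and STAT genes were tested. In FOXM1-KD cells with DMSO, 6 were called lower and 2 higher, with a median log2 fold change of -1.85. The shares to read these and the next counts against are 16.2% lower and 13.4% higher over protein-coding genes for FOXM1-KD with DMSO, and 24.3% and 30.2% for MK-2206. JAK3, the kinase of receptors that use the common gamma chain, had 5742 and 5119 counts in control and 0 in both FOXM1-KD libraries, and STAT5A fell from 13687 and 14025 counts to 305 and 131 (log2 fold change -6.04, SE 0.471). STAT6 (2.69, SE 0.145) and STAT2 (1.04, SE 0.237) were higher. After MK-2206 the counts were again 6 lower and 2 higher, with STAT5A at -6.96 (SE 0.331) and JAK3 at -6.22 (SE 0.348).

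Of 13 STAT target genes, 7 were called lower and 2 higher in FOXM1-KD cells with DMSO, with SOCS3, a feedback inhibitor of IL6ST and CSF3R signalling, going from 1393 and 1314 counts to 11 and 6, and PIM1, a survival kinase, from 10168 and 11533 to 203 and 105. After MK-2206, 6 were lower and 5 higher: PIM1 was at -2.33 (SE 0.262) and CDKN1A, a cell cycle inhibitor with many inducers, at 9.82 (SE 0.375). Among 19 feedback inhibitors, 5 were lower and 1 higher in FOXM1-KD cells and 5 lower and 2 higher after MK-2206. SOCS1 rose from 115 and 140 counts with DMSO to 5270 and 3675 counts after MK-2206. CISH, SOCS2 and SOCS3 are in both lists and were called lower in FOXM1-KD cells with DMSO, so the counts of the lists are not separate results.

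Of 18 transducers of IL-1 and IL-18 signals, 1 was higher and 2 were lower in FOXM1-KD cells with DMSO, with IRAK1 at 1.40 (SE 0.171) and TAB2 at -1.53 (SE 0.110), and after MK-2206 5 were higher and 5 lower, with IRAK2 at 4.85 (SE 0.399) and IRAK3 at -3.32 (SE 0.306). These counts lie near or under the shares over all protein-coding genes. Of 16 transcription factors known to act on receptor genes, 5 were higher and 5 lower in FOXM1-KD cells. CEBPE, of late granulocyte development, was at 5.13 (SE 0.629), and TAL1 and GFI1B, of stem and erythroid cells, fell from 46 and 31 to 0 and 0 counts and from 985 and 1344 to 2 and 0 counts. Of 5 enzymes and helpers of receptor shedding, which releases IL6R from the membrane, FURIN was lower in FOXM1-KD cells (-1.80), and after MK-2206 RHBDF1 (5.72) and ADAM17 (2.09) were higher and ADAM10 (-1.40) lower. Other receptor genes moved both ways: of 28 tested of 36, 11 were higher and 9 lower in FOXM1-KD cells with DMSO, with IL23R going from 0 counts in both control DMSO libraries to 2405 and 1557 in FOXM1-KD cells and IL2RA from 178 and 228 to 0.

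With AraC in control cells, where 6.19% of protein-coding genes were higher and 1.97% lower, 3 of 13 STAT target genes were higher and 2 of 11 JAK and STAT genes, STAT5B at -1.48 (SE 0.124) and STAT5A at -1.37 (SE 0.122), were lower. Of 27 other receptor genes tested, 11 were higher, with IL2RB at 2.22 (SE 0.243), and LEPR was lower at -1.18 (SE 0.287). In FOXM1-KD cells, where 11.9% of protein-coding genes were higher and 2.44% lower, AraC raised 7 of the 13 STAT target genes, with CDKN1A at 5.26 (SE 0.378) and SOCS3 at 4.16 (SE 0.470), and lowered MYC, at -1.48 (SE 0.248). IL1B, the ligand of IL1R1, was higher by 4.08 (SE 0.415) there, at 269 and 327 counts, still below the 1461 and 1438 counts of control cells with AraC.

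Between the lines under AraC, 5 of the 11 JAK and STAT genes were lower and 2 higher, and of the 13 STAT target genes 8 were lower and 3 higher, beside 16.3% and 17.4% of protein-coding genes. Venetoclax in FOXM1-KD cells raised SOCS1 by 4.43 (SE 0.483) and SOCS3 by 2.24 (SE 0.616).

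Outside these lists, the genes whose level followed the members other than EPOR most closely over the 8 condition means were searched among 12224 protein-coding genes. By Pearson's r of log2(CPM + 1), the leading genes were TPM4 (0.996) and ZNF611 (0.995) for CSF3R, LCP1 (0.998) and BIRC5 (0.996) for CSF2RB, PPT2 (0.997) and SLC39A3 (0.996) for IL6R, and ARHGEF17 and TRAPPC6B (both 0.989) for IL6ST. For the IL-1 family they were SLC16A14 (0.996) and POLB (0.994) with IL18R1, CD52 and ZNF727 (both 0.999) with IL18RAP, and ANXA9 (0.996) and PLAAT4 (0.994) with IL1R1. HPSE (0.991) and FCER2 (0.989) were closest to IL7R. These are descriptions over 8 points that share libraries, with no test.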

How the data were processed

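RNA-seq of 16 KG-1 libraries, 2 in each of 8 conditions, was analysed from the table of gene counts that the authors deposited. Per the submitters' processing notes, STAR (hg38) and featureCounts made the counts. The labels name a TruSeq kit with rRNA depletion and the study's methods a stranded CORALL kit, so strandedness is not certain.

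The 9 members and all gene lists were chosen with earlier results of these data known. Symbols came from GENCODE release 44. edgeR 4.0.16 (R 4.3.3) was run with TMM scaling and quasi-likelihood tests on the 4 libraries of each comparison (8 for a difference between responses), keeping every gene that had 1 count or more and adjusting p-values over all of them (Benjamini-Hochberg). A change was called at 2-fold and an adjusted p below 0.1. A group without counts was set at 3 counts, and a group with 1 to 3 counts got an exact 95% interval. Alternatives were total counts, DESeq2 size factors, filterByExpr, DESeq2 1.42.0, all 16 libraries in a single fit, an adjusted p below 0.05, a prior count of 2, the replicate block and leaving out each library. The edgeR fit of FOXM1-KD against control in DMSO was also run on simulated counts. These had the same spread for every gene and changes only in genes with higher counts. The simulation therefore does not test calls at few counts or with uneven replicates. Members were all named, and of each list at most 2 called genes per direction with the largest change and at least 10 counts in each library of a group, beside ligands and partners by level. Depth was 7351755 to 21362546 counts per library, lowest in the 2 MK-2206 libraries. The genes most like EPOR are not reported here.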

Additional observations from a re-analysis of the deposited data

Results flagged for a closer look

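The response to AraC differed between FOXM1-KD and control cells for 3 of the receptor genes, by a test of the difference itself in edgeR. IL18R1 responded by 1.64 more on the log2 scale in FOXM1-KD cells (SE 0.599, adjusted p = 0.0964), with 5 and 5 counts before and 22 and 23 after AraC, against 104 and 146 before and 200 and 223 after in control cells. IL18RAP differed by 5.42 (SE 1.45, adjusted p = 0.00704), a fitted value that depends on the prior count because the FOXM1-KD DMSO libraries held 0 counts, and was 1.89 with a prior count of 2. IL1R1 differed by 2.30 (SE 0.733, adjusted p = 0.0368), and by 1.65 without FOXM1-KD AraC replicate 2 and 3.09 without FOXM1-KD DMSO replicate 2. All 3 lie in the same stretch of chromosome 2 and had at most 23 counts in any FOXM1-KD library with DMSO or AraC. Their neighbour IL1RL2 went from 3 and 3 counts to 28 and 14 with AraC in control cells. In FOXM1-KD cells IL1RL2 had 0 counts in all libraries with DMSO or AraC. IL1R2 went from 4 and 1 to 8 and 17 counts in control cells and from 0 and 1 to 6 and 8 in FOXM1-KD cells. Why the responses differed was not tested.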

How the results depend on the processing

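The number of the 9 receptor genes called was 6 for FOXM1-KD against control in DMSO (5 to 7 without single libraries), 8 under AraC (8 to 8), 7 under venetoclax (5 to 7) and 8 for MK-2206 (7 to 8). For AraC in control cells it was 1 (0 to 2), and 0 with filterByExpr and 0 with DESeq2, where IL7R had too few counts. For STL427944 it was 0 (0 to 2) and for venetoclax 0. For AraC in FOXM1-KD cells it was 3 (0 to 3) and 1 with DESeq2. For the difference between AraC responses it was 3 (0 to 3), and 1 with filterByExpr, 1 with DESeq2 and 1 with all 16 libraries in a single fit. In all, these included, 73 of 79 counts under other settings and 40 of 52 without a library stayed within 1.5 times. Signs turned only for members that were not called: with total counts only, the IL6R difference between AraC responses was 0.015, and without single libraries it ran from -0.438 to 0.459, that of CSF2RB from -0.0169 to 0.285, CSF2RB in FOXM1-KD against control under venetoclax from -0.588 to 0.208 and EPOR under AraC in FOXM1-KD cells from -0.478 to 0.040. The causes were not tested. Same-numbered libraries correlated in their deviations by 0.426 to 0.694 over 10 pairs of groups, but the labels do not say that a number marks a shared batch. The replicate block gave 8 members under AraC and 7 under venetoclax, the same counts as without the pairing. The members at 0 to 10 counts, IL7R, IL1R1, IL18R1 and IL18RAP in FOXM1-KD or MK-2206 libraries, are the ones whose size depth limits.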
